A study of Bos taurus with 18 samples.

Results

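The 143 miRNAs described here are the bovine entries numbered from miR-2286 to miR-2490 that were listed in at least 1 of 18 small RNA libraries of rumen papillae. They were chosen by name alone, whatever their letter suffix, copy or arm. They comprise 144 of the 966 names in the libraries, and miR-2319a and miR-2319b, which overlap, were counted as 1, so that 143 of 824 miRNAs remained. The names cover 117 of the 205 numbers in the range. Most entries of this stretch were first described in cattle, and the large miR-2284 and miR-2285 families, whose numbers come just before, are outside it.

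The libraries came from 9 Holstein cows that were not in milk and carried a rumen cannula, through which papillae of the rumen wall were biopsied. FD_CON (5 libraries) and FD_PHY (4) were taken on a diet of 100% forage. HG_CON (5) and HG_PHY (4) were taken after the move to a high-grain diet with 65% concentrate. CON cows were controls and PHY cows were assigned a supplement labelled PHY, and the sources used here say neither what PHY is nor whether it was already fed on forage. The age of the cows is likewise not given. Every forage sample came before the grain samples, so diet and time cannot be told apart. The 18 libraries came from 9 cows, so they are not independent. Which forage library belongs to which grain library is not stated.

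A miRNA is an RNA of about the length of these entries, cut from a hairpin precursor, that guides the Argonaute protein to messenger RNAs pairing with its seed, the bases near its 5′ end. The hairpin has a 5p arm and a 3p arm, and usually one of them is kept while the other is degraded. Many hairpins sit inside introns of protein-coding genes and are transcribed with them. Entries that were described in a single species from sequencing reads are often scarce and little studied, and for most of those below no function is named here for that reason.

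With each read counted once per miRNA, libraries held 5.74 to 15.2 M counted reads (M, mega-reads). Their total depth was 19.5 to 42.7 M reads, and 515 to 591 miRNAs were listed per library. Levels are given as CPM, counts per M counted reads scaled by TMM, a library scaling that leaves out extreme miRNAs. Markers of the labelled tissue were present. Summed over 6 miRNAs of stratified epithelium, which include miR-205 and members of the miR-200 family, the level was 50196 to 71561 CPM. Smooth muscle miR-143 and miR-145 together reached 102134 to 296785 CPM. The highest of the latter was in FD_CON 2. The liver miRNA miR-122 stayed between 55.7 and 171 CPM.

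The members were scarce as a class and very uneven. Together they held 0.0673% ± 0.0212 of the counted reads (SD, n = 18), 111576 reads in all. Only miR-2332 and miR-2478 had a mean of at least 100 CPM. Another 5 members lay between 10 and 100 CPM, 20 between 1 and 10 CPM, and 116 below 1 CPM. miR-2332 and miR-2478 alone took 66.5% of all member reads, and the 7 most abundant members took 89.2%. Among all 824 miRNAs they ranked only 131 and 134 by mean level.

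**Figure D1:**
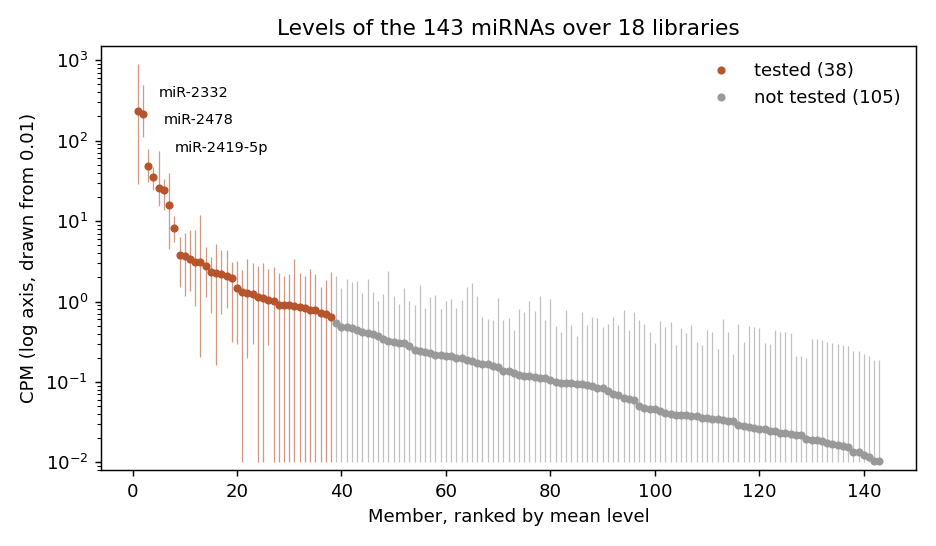
Level of each of the 143 members on a log axis, ranked by mean. Points are means over 18 libraries and lines run from the lowest to the highest library, with 0 drawn at 0.01 CPM; 38 members passed the filter for testing and 105 did not, and miR-2332 and miR-2478 stand apart at the left with means of 232 and 215 CPM.

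Other bovine classes were set beside the members to place this level. The median member had a mean of 0.136 CPM. The median was 0.295 CPM over 92 miRNAs of the miR-2284 and miR-2285 families, 0.170 CPM over 132 bovine miRNAs numbered over 6000 and 34.8 CPM over 316 numbered under 1000 or named let-7, which are mostly conserved among mammals. The share of reads was 0.133% ± 0.0128 for the miR-2284 and miR-2285 families and 1.30% ± 0.143 for those numbered over 6000 (SD, n = 18 each). The class numbered under 1000 held 97.0% ± 0.154. These differences between classes are descriptions of the same libraries and were not tested.

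A member was listed in a library when it had at least 2 reads, the lowest count that the files hold. Of the 143, 23 were listed in all 18 libraries, 25 in 12 to 17, 29 in 6 to 11, 43 in 2 to 5 and 23 in a single library. There were 23 members listed on forage only and 12 on grain only, all of them scarce. These counts were not adjusted for depth, which differed between libraries, and the same counts over all miRNAs were not made. No difference between the diets is read from them. The most read member on forage only, miR-2396, had 22 reads over 6 libraries. The most read on grain only, miR-2467-3p, had 10 reads over 3 libraries.

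More members were listed in forage libraries (67.3 ± 4.27) than in grain libraries (61.1 ± 6.68; SD, n = 9 each), and the libraries also differed in depth. For each library the number of members that would be listed at the depth of the smallest one, 5.74 M counted reads in HG_CON 1, was calculated from the hypergeometric distribution. At that depth the expected number was 54.1 ± 4.21 on forage and 54.1 ± 2.61 on grain. At equal depth the means of the diets were thus within 1 SD of each other.

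**Figure D2:**
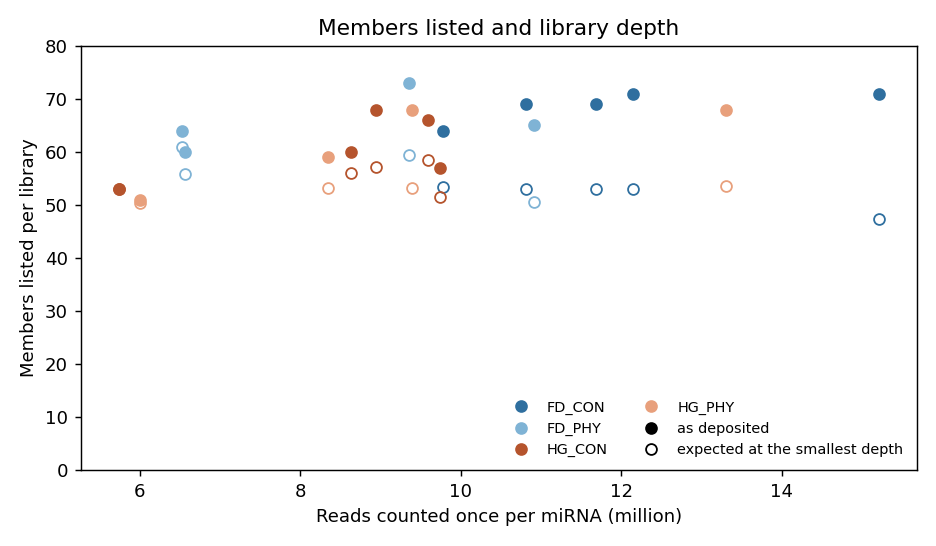
Members listed per library (filled points) against reads counted once per miRNA, in M, by group, with the number expected at the depth of the smallest library (open points). The filled points lie between 51 and 73 members and tend to be higher in deeper libraries, while the open points lie between 47.3 and 61.0. The highest filled point is FD_PHY 2, at 9.36 M, and the deepest library, FD_CON 2 at 15.2 M, lists 71.

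miR-2332 was the most abundant member. Its hairpin lies on chromosome 19, inside UTP6, which encodes a factor of ribosome assembly. In FD_CON its level was 223, 28.9, 267, 153 and 53.9 CPM in replicates 1 to 5. In FD_PHY it was 64.5, 160.2, 271 and 146 CPM. On grain it stood at 414, 245, 255, 896 and 104 CPM in HG_CON and at 154, 443, 199 and 90.0 CPM in HG_PHY. The groups overlapped throughout, and FD_CON 2 was the lowest library and HG_CON 4 by far the highest, 31.03-fold above it. HG_CON 4 ranked 2 of 18 for the summed epithelial markers (69567 CPM) and 12 of 18 for the smooth muscle markers. At the ends of the epithelial ranking, FD_CON 4 ranked 1 with miR-2332 at 153 CPM. HG_CON 3 ranked 18 with miR-2332 at 255 CPM. The part of cell makeup in the level of miR-2332 was not tested. In bulk tissue, fewer cells of a type and less RNA per cell cannot be told apart.

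miR-2478, on chromosome 9 and inside no annotated gene, was the other abundant member. Its level was 123, 121, 126, 486 and 388 CPM in FD_CON, and 486, 321, 191 and 169.5 CPM in FD_PHY. On grain it was 118, 206, 136, 141 and 287 CPM in HG_CON, and 160, 110.1, 138 and 167 CPM in HG_PHY. Of the forage libraries 5 were below 200 CPM and 4 above 300 CPM, whereas no grain library exceeded 287 CPM. In PHY cows every grain library was below every forage library, if barely.

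These 2 miRNAs set most of the spread of the class. miR-2332 was above miR-2478 in 9 of 18 libraries and below it in the other 9; it was above in 3 of 9 forage libraries and in 6 of 9 grain libraries. The summed level of all members varied from 388 CPM in FD_CON 2 to 1291 CPM in HG_CON 4. Without miR-2332 and miR-2478 the other members summed to 176.9 to 260.4 CPM, with a mean of 219 ± 13.0 CPM over the 9 forage libraries and of 221 ± 26.6 CPM over the 9 grain libraries (SD). The biological coefficient of variation, the spread that edgeR estimates beyond counting noise, was 0.609 for miR-2332 and 0.420 for miR-2478. Among the 157 tested miRNAs with a mean of at least 100 CPM these ranked 1 and 3, against a median of 0.180.

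The next 5 members by level were steadier, apart from miR-2484 and miR-2411-3p. miR-2419-5p, from a hairpin on chromosome 4 inside no annotated gene, averaged 48.7 ± 13.5 CPM (SD, n = 18) and ranged from 30.8 to 77.7 CPM. miR-2387, on chromosome 25 within the transcription factor gene GTF2IRD1, averaged 35.3 ± 5.68 CPM, and its coefficient of variation over libraries, 16.1%, was the lowest among the 38 tested members (median 56.9%). miR-2336, on chromosome 19 outside genes, averaged 24.6 ± 5.17 CPM. All 3 were listed in every library, with at least 138 reads.

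miR-2411-3p lies on chromosome 3 within UBAP2L, which encodes an RNA-binding protein. It averaged 15.7 ± 9.10 CPM, and like miR-2332 it was highest in HG_CON 4, at 40.1 CPM. Its lowest levels were in HG_CON 5 (4.504 CPM), FD_PHY 1 (4.68 CPM) and FD_CON 5 (5.42 CPM), libraries in which miR-2332 was at 104, 64.5 and 53.9 CPM.

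miR-2484, on chromosome X within an uncharacterised protein-coding locus, had 1 library far above the rest. Its level was 22.3, 74.5, 28.96, 28.2 and 23.1 CPM in FD_CON and 28.8, 25.2, 22.9 and 22.6 CPM in FD_PHY. On grain it was 21.8, 23.0, 15.5, 18.1 and 21.5 CPM in HG_CON and 23.0, 17.99, 30.3 and 16.1 CPM in HG_PHY. The high library was FD_CON 2, which also had the highest summed level of smooth muscle markers, 296785 CPM, and of endothelial markers, 16158 CPM. Their part in the level of miR-2484 was not tested.

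**Figure D3:**
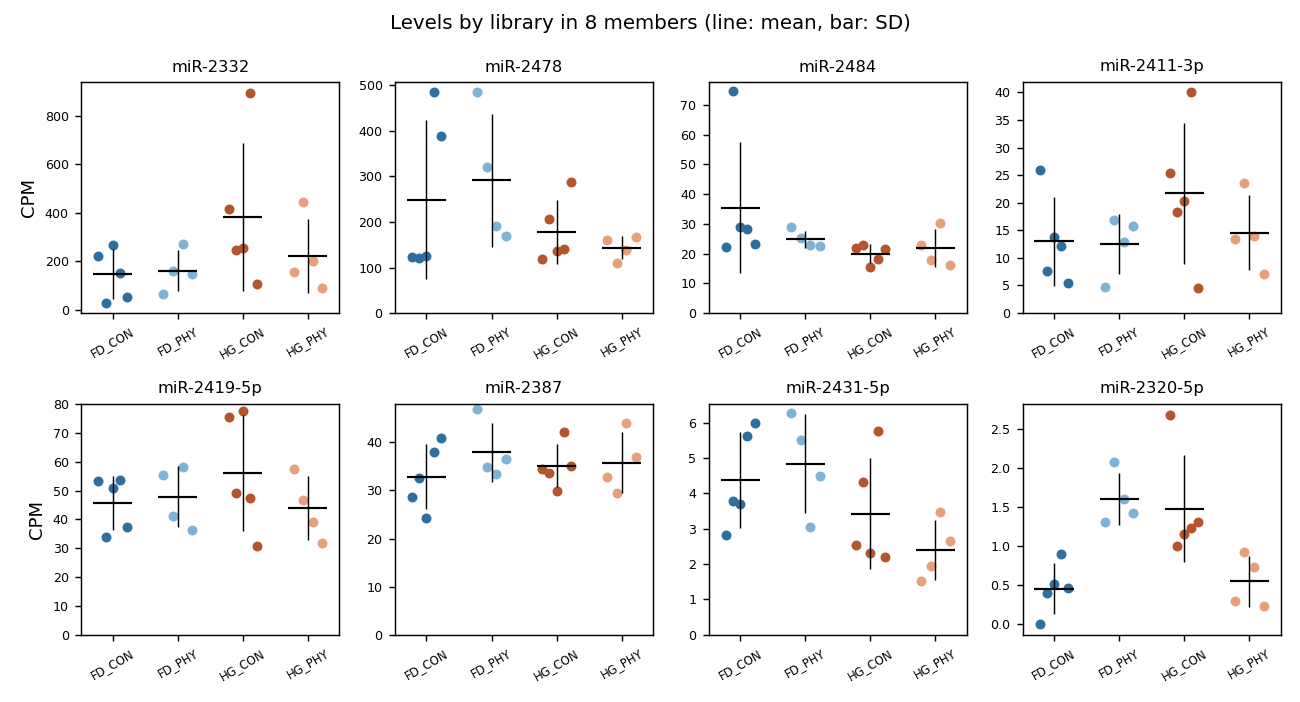
CPM of 8 members in each library, in the groups FD_CON and HG_CON (5 libraries each) and FD_PHY and HG_PHY (4 each), with the group mean (line) and SD (bar). miR-2332 reaches 896 CPM in 1 HG_CON library, miR-2484 reaches 74.5 CPM in 1 FD_CON library, and miR-2387 stays between 24.3 and 46.8 CPM in all.

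The files also give for each name a number of unique reads, which the header does not define. Over all libraries miR-2478 had 212 reads per unique read and miR-2332 had 102, against 26.7 for miR-2419-5p, 15.9 for miR-2387 and 9.97 for miR-2484. The median over the tested members was 4.98. miR-2478 had 6 to 14 unique reads per library and miR-2332 had 7 to 50.

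Both arms were listed for 25 hairpins of the class. The 5p arm had more reads in 8 of them, the 3p arm in 16, and the arms of miR-2330 were equal at 4 reads each. miR-2419 was read almost only from its 5p arm, with 98.2% of 8189 reads, and the 5p arm led in 18 of 18 libraries. At the other end stood miR-2368, with 0.917% of its reads from the 5p arm. The 3p arm also led for miR-2411 (11.8% of the reads from the 5p arm), miR-2448 (22.5%) and miR-2299 (28.7%), in 18, 15 and 17 of 18 libraries. Several hairpins used both arms to a like extent, such as miR-2483, with 56.9% of the reads from its 5p arm.

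Arm use is given by diet for the hairpins with most reads. The 5p share of miR-2419 was 98.4% on forage and 98.0% on grain, and that of miR-2299 was 26.4% and 31.1%. The 5p share of miR-2411 was 16.2% on forage and 8.002% on grain, and that of miR-2431 was 86.0% and 78.9%. These shares pool the reads of 9 libraries a diet and were not tested.

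**Figure D4:**
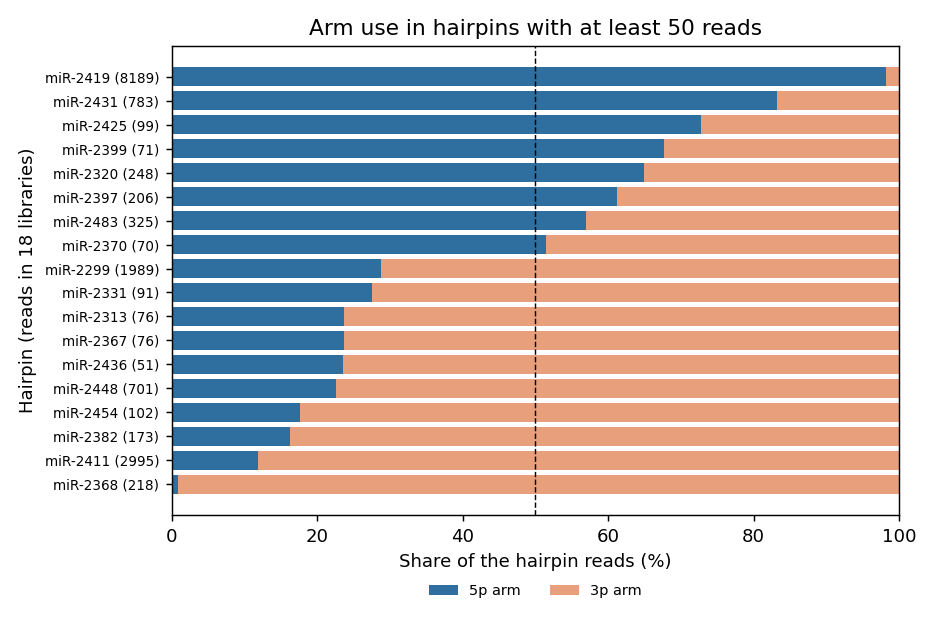
Share of reads from the 5p arm (blue) and the 3p arm (orange) in the 18 hairpins with both arms listed and at least 50 reads over all libraries, with the number of reads in brackets. Shares from the 5p arm run from 98.2% in miR-2419 to 0.917% in miR-2368, and the dashed line marks equal use.

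Most hairpins of the class lay inside protein-coding genes. Of the 143 members, 141 matched a miRNA gene in the RefSeq gene table of the assembly ARS-UCD2.0, all on the chromosome that the library files give. The sources used here do not name the files' genome build, so no positions are printed. The 141 came from 120 hairpin genes, of which 98 (81.7%) lay within a protein-coding gene. That share was 72.7% for the 88 hairpin genes of the same number range that were not listed in any library, and 62.1% for the other 824 bovine miRNA genes of the table. The table gives no strand, so host and hairpin may lie on opposite strands. Chromosomes 5 and 19 held the most members, 16 and 13.

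A few members were neighbours of conserved miRNAs in the files' own coordinates. miR-2443 started 542 nt from let-7b on chromosome 5, on the same strand, and averaged 3.63 CPM. miR-2475 was 654 nt from miR-23b-3p and 885 nt from miR-27b on chromosome 8, yet it had only 46 reads over 9 libraries. miR-2382, miR-2378 and miR-2333 were within 10000 nt of miR-1842, miR-877 and miR-365-3p. The opposite-strand hairpins miR-2300a and miR-2300b share 1 locus within FLT1, and some other names have several loci. For 7 members the authors' adjusted count was below 0.99 of the raw count, so their reads also fit other names or loci. The ratio was 0.338 for miR-2404 and 0.506 for miR-2310, the only ones among these 7 that could be tested, and their levels are uncertain for that reason.

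Of the 143 members, 38 passed edgeR's filterByExpr, a filter on low counts, and were tested together with 430 other miRNAs. The 105 that did not pass had at most 87 reads over all libraries. The main comparison asked which members differed between forage and grain with both arms averaged. None of the 38 passed edgeR's quasi-likelihood test at an adjusted p under 0.05 (0 of 38, beside 0.214% of all 468 tested), and DESeq2 also called 0. At an unadjusted p under 0.05 there were 5 members in edgeR and 4 in DESeq2. Shares of all tested miRNAs, here and below, are from edgeR alone, and the DESeq2 counts have no such share beside them. The 5 are 13.2% of the members tested, beside 10.7% of all miRNAs tested, so the class did not stand out from its background. The log2 change was above 0 in 24 of 38 members (63.2%, beside 49.1% of all), with a median of 0.08 against -0.01 over all miRNAs.

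Marker miRNAs are given here by diet, and differences in their level were not tested. The 6 epithelial markers summed to means of 59080 CPM on forage and 60067 CPM on grain. The 5 leukocyte markers overlapped widely, at 4447 to 6703 CPM on forage and 3873 to 6727 CPM on grain. So did the 3 striated muscle markers, at 485 to 1113 CPM and 372 to 776 CPM. The summed level of the smooth muscle markers miR-143 and miR-145 was 128685 to 296785 CPM in forage libraries (mean 162654 CPM) and 102134 to 132251 CPM in grain libraries (mean 112614 CPM), so the diets overlapped only slightly. The 2 endothelial markers summed to 13013 to 16158 CPM on forage and 9452 to 14189 CPM on grain. The 3 erythroid markers overlapped widely, with means of 9756 and 11549 CPM. The sums take in only markers found under their chosen names, which left an epithelial marker out. The part of these markers in the values of the members that follow was not tested.

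The 5 members with an unadjusted p under 0.05 by edgeR were 4 lower (10.5%, beside 6.41% of all tested) and 1 higher on grain (2.63%, beside 4.27%). The mean of miR-2478 was 268 ± 154 CPM in forage and 162 ± 54.7 CPM in grain libraries (SD, n = 9 in each diet). Its log2 change was -0.75 ± 0.29 (SE, 95% interval -1.32 to -0.19; edgeR adjusted p = 0.317), and 8 of 9 grain libraries lay under the mean of the forage libraries. The median forage library of miR-2478, at 191 CPM, also lay under that mean. The mean of miR-2332 was 152 ± 90.2 CPM in forage and 311 ± 252 CPM in grain libraries. Its log2 change was 0.93 ± 0.43 (95% interval 0.08 to 1.78; edgeR adjusted p = 0.451), and 7 of 9 grain libraries lay over the forage mean. The median forage library of miR-2332, at 153 CPM, also lay just over that mean. Without HG_PHY 2 the log2 change of miR-2332 was 0.61.

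The mean of miR-2484 was 30.7 ± 16.7 CPM in forage and 20.8 ± 4.56 CPM in grain libraries. All 9 grain libraries lay under the forage mean, but so did every forage library except FD_CON 2. Its log2 change was -0.51 ± 0.21 (edgeR adjusted p = 0.330), and it was -0.29 without FD_CON 2. miR-2431-5p, from a hairpin within a long non-coding RNA gene on chromosome 5, had a mean of 4.59 ± 1.31 CPM in forage and 2.97 ± 1.34 CPM in grain libraries (log2 change -0.67 ± 0.26; edgeR adjusted p = 0.317). Here 8 of 9 grain libraries lay under the forage mean, as did the median forage library, at 4.49 CPM. For miR-2411-5p the means were 2.55 ± 1.001 CPM and 1.65 ± 0.917 CPM (log2 change -0.71 ± 0.33; edgeR adjusted p = 0.451), under the forage mean in 7 of 9, while its partner arm miR-2411-3p had a log2 change of 0.47 ± 0.35 (edgeR adjusted p = 0.629; 0.27 without HG_PHY 2). The difference between the arms was not tested.

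Next in order came scarcer members with wide intervals. miR-2424, within the condensin gene NCAPD2, had a log2 change of 0.75 ± 0.39, and of 0.44 without HG_PHY 1. miR-2440, within the ribosomal protein gene RPL3, had -0.99 ± 0.52. For miR-2447, within LIN54, a gene of a cell-cycle repressor complex, it was 0.60 ± 0.39. Their adjusted p by edgeR was 0.468, 0.468 and 0.565.

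The other abundant members showed no difference that these libraries could resolve. miR-2387 had a log2 change of 0.01 ± 0.13 (95% interval -0.25 to 0.26), miR-2419-5p of 0.08 ± 0.18 (-0.27 to 0.43) and miR-2336 of 0.22 ± 0.15 (-0.08 to 0.51; 0.14 without HG_PHY 2). For miR-2299-3p, within the glycosyltransferase gene B3GLCT, it was -0.08 ± 0.18 (-0.43 to 0.27; -0.17 without HG_PHY 4 and -0.00069 without HG_PHY 1), with means of 8.40 ± 1.58 CPM in forage and 7.89 ± 2.07 CPM in grain libraries. Over all 38 tested members the log2 change ran from -0.99 to 0.93.

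**Figure D5:**
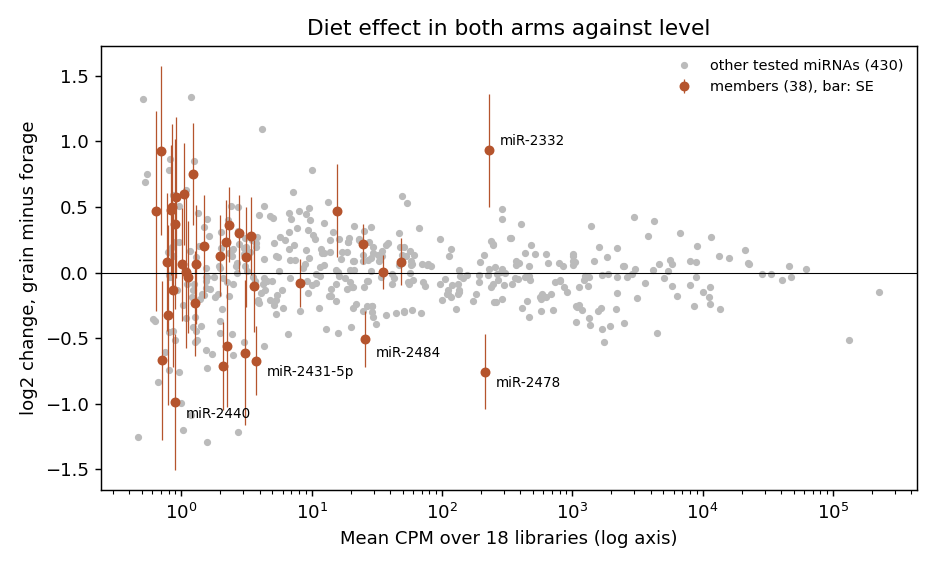
Log2 change on grain against forage, both arms averaged, against mean CPM on a log axis, for the 38 tested members (orange, bars are SE) and the other tested miRNAs (grey). miR-2332 at 0.93 and miR-2478 at -0.75 lie outside the range of the other tested miRNAs with a mean of 100 to 500 CPM, -0.34 to 0.48, and neither passed the test.

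Within the control arm, the change from forage to grain gave 0 of 38 members by edgeR (beside 0.0% of all 468 miRNAs) and 0 by DESeq2. Either tool had 3 at an unadjusted p under 0.05 (7.89%, beside 10.7% of all in edgeR). Of the 3, 2 were higher on grain (5.26%, beside 3.85% of all) and 1 lower (2.63%, beside 6.84%). They were miR-2484 (log2 change -0.83 ± 0.28), miR-2320-5p (1.66 ± 0.60) and miR-2332 (1.40 ± 0.58), with an edgeR adjusted p of 0.397 each. Without FD_CON 2 the value of miR-2484 was -0.40, and without HG_CON 4 that of miR-2332 was 0.81. The next was miR-2336 at 0.33 ± 0.20 (edgeR adjusted p = 0.671), and at 0.21 without FD_CON 4.

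Within the PHY arm the same contrast also gave 0 of 38 (beside 0.0% of all) by edgeR and 0 by DESeq2. Either tool had 3 at an unadjusted p under 0.05 (7.89%, beside 7.05% of all in edgeR). All 3 were lower on grain (7.89%, beside 3.42%). These were miR-2431-5p (log2 change -0.996 ± 0.40), miR-2478 (-1.02 ± 0.43) and miR-2320-5p (-1.54 ± 0.66), each with an edgeR adjusted p of 0.647. Without FD_PHY 1 the value of miR-2478 was -0.66. miR-2411-5p followed at -0.98 ± 0.51 (edgeR adjusted p = 0.737). The groups did not overlap in 2 of 38 members, miR-2478 and miR-2320-5p (5.26%, beside 5.77% of all tested miRNAs).

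PHY and control cows were also set against each other on each diet. These are different cows, so the contrast includes differences between cows. On forage 0 of 38 members passed by edgeR (beside 0.0% of all) and 0 by DESeq2, with 2 at an unadjusted p under 0.05 in edgeR (5.26%, beside 4.7%) and 3 in DESeq2. The log2 difference was above 0 in 18 of 38 members (47.4%, beside 44.4% of all). miR-2320-5p had a log2 difference of 1.81 ± 0.62 (PHY minus control) and miR-2474, within the adaptor protein gene SHB, one of -1.54 ± 0.73. miR-2368-3p (1.10 ± 0.55) and miR-2339 (1.07 ± 0.58) came next. All 4 had an edgeR adjusted p of 0.929. miR-2474 stood at -1.17 without FD_PHY 1 and miR-2339 at 0.72 without FD_PHY 3.

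On grain the same comparison gave 0 of 38 members by edgeR (beside 0.0% of all) and 0 by DESeq2. Either tool had 1 at an unadjusted p under 0.05 (2.63%, beside 6.84% of all in edgeR). That was miR-2320-5p, at -1.40 ± 0.64. The log2 difference was above 0 in 16 of 38 members (42.1%, beside 50.2% of all). miR-2431-3p (-1.32 ± 0.73), miR-2411-5p (-0.83 ± 0.49) and miR-2483-3p (-1.61 ± 1.01) followed, all 4 with an edgeR adjusted p of 0.677. miR-2483-3p was not listed in 3 of the 18 libraries and stood at -1.06 without HG_CON 3.

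miR-2320-5p was thus the member with the lowest p in both of those comparisons, with opposite signs. It was scarce, with 161 reads over 17 libraries. Its level was 0, 0.403, 0.515, 0.906 and 0.467 CPM in FD_CON, and 1.32, 2.08, 1.60 and 1.43 CPM in FD_PHY. On grain it was 2.69, 1.003, 1.15, 1.24 and 1.32 CPM in HG_CON, and 0.305, 0.922, 0.736 and 0.234 CPM in HG_PHY. FD_CON and HG_PHY were low and FD_PHY and HG_CON high, with no overlap in any of the 4 comparisons between groups that share a diet or an arm. Behind these values stood 0 to 9 reads per library in FD_CON, 9 to 20 in FD_PHY, 10 to 17 in HG_CON and 2 to 8 in HG_PHY.

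It was the only member whose groups did not overlap in CON across diets (1 of 38, 2.63%, beside 1.07% of all tested miRNAs), on forage between arms (1 of 38, beside 1.28%) and on grain between arms (1 of 38, beside 2.56%). The diet by supplement interaction, which tests whether the diet effect differs between the arms, was -3.20 ± 0.89 on the log2 scale for miR-2320-5p. Its unadjusted p of 0.00181 in edgeR did not survive adjustment over 468 miRNAs (adjusted p = 0.849), and DESeq2 gave an adjusted p of 0.101 (0.101 to 0.99999 over 23 alternatives). It was the only member of 38 at an unadjusted p under 0.05 (2.63%, beside 2.14% of all and, for those below 0, 0.855%), and 0 passed (beside 0.0% of all). The interaction was above 0 in 17 of 38 members (44.7%, beside 56.4% of all). miR-2427 (-2.18 ± 1.17), miR-2484 (0.64 ± 0.42) and miR-2368-3p (-1.12 ± 0.79) followed, all with an edgeR adjusted p of 0.997. miR-2427 was -1.06 without FD_PHY 1, miR-2484 was 0.22 without FD_CON 2, and miR-2368-3p was -0.73 without HG_CON 2. The other arm of miR-2320, miR-2320-3p, had 87 reads and did not pass the filter.

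The remaining members of the 15 most abundant had no unadjusted p under 0.05 in edgeR in the main comparison. miR-2344, within the tubulin cofactor gene TBCD, had the widest range of these 15 relative to its lowest level, from 0.206 CPM in FD_CON 3 to 11.8 CPM in FD_CON 5. Its log2 change on grain of -0.61 ± 0.55 rested on FD_CON 5 and was 0.04 without it. The others of that set were miR-2443 (-0.11 ± 0.35), miR-2299-5p (0.28 ± 0.30), miR-2448-3p (0.12 ± 0.38), miR-2404 (0.30 ± 0.29) and miR-2310 (0.37 ± 0.29). Without HG_PHY 1 the value of miR-2299-5p was 0.11, and without FD_CON 5 it was 0.44. That of miR-2404 was 0.17 without HG_PHY 4.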

How the data were processed

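The members, lists and tests were chosen with earlier results of these data known. Per the labels' protocols, a NucleoSpin miRNA kit served for RNA extraction and a NETflex Small RNA-Seq kit for library preparation. Bcl2fastq 2.20 and DESeq2 appear in the submitters' processing notes. The sources used here name no aligner, counter or build.

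Per the file headers, each deposited library file holds, by mature name, raw counts, unique reads, RPM of all reads, and expected counts, where the authors shared out reads that fit more than 1 name or locus. The RPM served only to find read totals. Counts below 2 are not listed and were set to 0. The authors' normalized table was not used.

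Names were merged where their positions overlapped by 15 nt or more, or where bovine and human entries of 1 miRNA had totals within 5%, under the name with the highest total, a member's name where there was one. Raw counts were tested with edgeR 4.0.16 in R 4.3.3 (filterByExpr, TMM, quasi-likelihood, 4 group means, all 18 libraries), two-sided, with Benjamini-Hochberg adjustment over 468 miRNAs and a threshold of 0.05. The fit takes all 18 libraries as independent although 9 cows gave them, and nothing in the labels says which libraries share a cow. The expected counts were rounded for an alternative. The other alternatives were DESeq2 1.42.0 as a test and for size factors, no filter, a filter of 10 CPM in 4 libraries, the replicate number as a block, and leaving out each library. The edgeR script was also run on simulated data. The outcome of that run is not given here, so it does not tell how often changes of the sizes above would be called.

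Named members are the 15 most abundant, the 8 of lowest p in the main comparison and 4 in each other one; others named were chosen after their values were seen. Replicate pairs of a group differed by a chi-square per degree of freedom of 86.9 to 1974, so each library was counted on its own. The counts per library limit the precision of scarce members. Each SE was computed back from the log2 change and the edgeR test statistic. The intervals use a normal quantile, so they are approximate and somewhat too narrow.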

Additional observations from a re-analysis of the deposited data

Results flagged for a closer look

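Of the 108 sets of libraries checked (26 named members and the summed share in each of 4 groups), 6 held 1 library far from the others by Dixon's criterion, and chance gives about 1 in 20. miR-2484 was at 74.5 CPM in FD_CON 2 (22.3 to 28.96 CPM in the other 4). miR-2299-5p was at 7.63 CPM in HG_PHY 1 (3.23 to 3.74 CPM in the other 3), and so was miR-2424, at 3.05 CPM (0.807 to 1.05 CPM). miR-2411-5p was low in FD_PHY 4, at 0.859 CPM (2.63 to 2.92 CPM in the other 3). miR-2320-5p was at 2.69 CPM in HG_CON 1 (1.003 to 1.32 CPM in the other 4) and miR-2427 at 1.27 CPM in HG_PHY 2 (0.210 to 0.311 CPM in the other 3). HG_PHY 1 and HG_CON 1 ranked 3 and 2 of 18 in the summed level of the erythroid markers, at 16870 and 17615 CPM. The other libraries named here, FD_CON 2, FD_PHY 4 and HG_PHY 2, ranked 18, 16 and 9. HG_CON 3 ranked 1 and held no flagged value. The part of blood content in these values was not tested.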

How the results depend on the processing

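No member passed in any of the 142 alternative fits of the 6 comparisons, and the lowest adjusted p in any of them was 0.101 (DESeq2, interaction). The share of all tested miRNAs that passed in these fits is not given here. By the main fit it was 0.214% in the main comparison and 0.0% in each other one, so having 0 members does not set the class apart. Leaving out 1 library gave 0 members in every comparison, with 36 to 41 members tested. With no filter 143 members were tested and with the filter of 10 CPM only 7. The share of reads held by the members was 0.0635% to 0.0693% with 1 library left out, lowest without HG_CON 4 and highest without FD_CON 2, and 0.0913% with expected counts. With the replicate block 0 members passed in the 3 diet comparisons and the interaction. Same-numbered libraries did not in general deviate together (correlations -0.02 to 0.39 over 9 pairs, 3 of them over 0.1). In 2 pairs, CON 5 (0.39) and PHY 4 (0.19), the forage library was closest to its own number. The numbers are thus not shown to pair the samples, and PHY against control cannot be blocked this way. Of 46 log2 changes, 10 turned in sign under 33 of 1058 alternatives, all in the main comparison. With the replicate block miR-2431-3p was -0.00944 and miR-2427 0.081. With 1 library left out the ranges were -0.014 to 0.161 for miR-2419-5p, -0.041 to 0.069 for miR-2387, -0.374 to 0.070 for miR-2443, -0.10 to 0.40 for miR-2448-3p, -0.784 to 0.045 for miR-2344, -0.13 to 0.25 for miR-2320-5p, -0.18 to 0.14 for miR-2339, -0.26 to 0.37 for miR-2431-3p, -0.587 to 0.00055 for miR-2483-3p and -0.60 to 0.43 for miR-2427. Depth limits what can be said of the 105 members below the filter.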
